A study of Mus musculus with 21 samples.

Results

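PTBP1 sites in non-coding RNA genes were mapped in mouse B cells by iCLIP, which recovers by UV crosslinking and immunoprecipitation the single bases of RNA that a protein touches. A site was taken when it lay inside at least 1 RefSeq span (GRCm38) of a long non-coding RNA (lncRNA), small nuclear RNA (snRNA), small nucleolar RNA (snoRNA) or other non-coding RNA gene and inside no protein-coding span, leaving out a stretch of chr17:39842000-39849000. The rule kept 7492 of the 244659 sites in the authors' pooled list, or 3.08% of the sites outside that stretch, in 750 gene spans. A site's value is its cDNA count, the number of distinct crosslinked molecules that ended there. The sites held 21248 cDNAs, 5.22% of those outside the stretch, with a 95% Wilson interval for counting error of 5.16% to 5.29%.

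The iCLIP libraries are 5 replicates of splenic B cells from female C57BL/6 mice, purified by negative magnetic sorting and kept in culture with the mitogen LPS (lipopolysaccharide) for 48 h. The labels do not say whether these replicates came from separate mice or cultures, and no control immunoprecipitation was used here. The other 16 libraries are poly(A) RNA of C57BL/6 germinal centre B cells of the light zone (LZ) or the dark zone (DZ), sorted 7 days after NP-KLH in alum. Conditional knockout (cKO) mice carried CD79acre/+Ptbp1fl/fl, so that Cre comes from 1 Cd79a allele and acts in the B lineage, and control mice carried CD79a+/+Ptbp1fl/fl without Cre. Both genotypes thus carry floxed Ptbp1, and the cKO mice also lack 1 intact Cd79a allele. Each of the 4 groups (LZ cKO, LZ control, DZ cKO, DZ control) held 4 libraries, each made from 3 to 5 pooled mice of 1 sex, with sort days 1 and 2 from males and 3 and 4 from females, and a pool gave 1 LZ and 1 DZ library. The iCLIP cells are thus not germinal centre cells, and a site there shows contact in cultured B cells only.

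PTBP1 (polypyrimidine tract binding protein 1, also hnRNP I) binds single-stranded RNA rich in U and C through its RNA recognition motifs. It is best known for repressing exons in pre-mRNA, and it also contacts non-coding RNAs: the E repeat of Xist and the human Y1 and Y3 RNAs are described partners. Many of these RNAs act in the nucleus, where small nuclear and nucleolar RNAs work in splicing, histone mRNA processing and ribosome synthesis.

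RefSeq sequence (GRCm38.p6) was at hand for 3 small RNA genes that carry sites, and these are shown because they place the crosslinked bases in a known part of each RNA. The first is Rnu7 (chr6:124741225-124741286, minus strand), the U7 snRNA that pairs with histone pre-mRNA to direct its 3′ end processing, with the pyrimidine run at bases 12 to 18 in capitals. The others are a tRNA gene for threonine, n-TTagt9 (chr7:35234770-35234843, minus strand), and the first 47 of the 74 bases of a tRNA gene for asparagine, n-TNgtt6 (chr1:171033969-171034015, minus strand), each with the anticodon of its name, bases 35 to 37, in capitals.
Rnu7: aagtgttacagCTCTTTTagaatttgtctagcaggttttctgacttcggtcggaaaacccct
n-TTagt9: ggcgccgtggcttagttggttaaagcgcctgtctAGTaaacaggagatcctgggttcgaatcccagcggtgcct
n-TNgtt6: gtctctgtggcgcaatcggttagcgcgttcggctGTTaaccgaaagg
Rnu7 held 12 sites with 37 cDNAs, of which 25 cDNAs (67.6%) fell on the 7 capital bases, and its 3 highest sites were Ts at bases 16, 15 and 17 with 9, 8 and 5 cDNAs. In the replicate lists its sites held 8 cDNAs in list 1, 14 in list 4 and none in the others. The run CTCTTTT is present in 0.843% of 32851 RefSeq promoter windows when their first 62 bases are searched on the same strand, and in 1.63% on either strand. The run was taken from Rnu7 itself, and the windows are genomic sequence. These figures thus show only how common the run is and are no test of binding. In n-TTagt9 the highest site, with 7 of 12 cDNAs, was the T at base 34 just before the anticodon. In n-TNgtt6 it was the middle T of the anticodon, base 36, with 13 of the 36 cDNAs of the whole gene, while base 59, beyond the printed bases, held 12. The site at base 36 was found in 4 of the 5 replicate lists, with 3, 4, 4 and 2 cDNAs in lists 1, 2, 4 and 5.

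The replicate lists differed in size, and list 3 stands apart. Lists 1 to 5 held 17573, 28829, 6211, 45505 and 23100 sites, of which 1119, 1510, 429, 2458 and 1443 were in non-coding genes, with 2442, 3503, 865, 6048 and 3055 cDNAs. List 3 is the smallest, and its 865 cDNAs are placed differently: Xist had 15 of them and the lncRNA Gm19951 had 130. Results over the lists are therefore given with and without it.

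Non-coding genes took a similar share of the cDNAs in every replicate. The share was 8.52%, 7.83%, 8.26%, 8.11% and 8.29% in lists 1 to 5, with a mean of 8.20% ± 0.255 (SD, n = 5), and 8.19% ± 0.292 without list 3. The lists thus differed by less than 1 percentage point although their depths differed several-fold. All of them lay above the 5.22% of the pooled list. That list also holds sites found in no replicate list, with 21.0% of its non-coding and 54.0% of its protein-coding cDNAs. The 2 levels thus rest on different sets of sites. Counting only sites on the strand of the gene gave 3.96% ± 0.481, and counting tRNA, miRNA and rRNA genes as non-coding too gave 12.9% ± 1.31, so the level depends on what is counted. The lower value also drops sites of genes whose strand the tables do not give, among them most small RNA genes. The fall is therefore not the share on the other strand.

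Sites in non-coding genes held more cDNAs each than sites in protein-coding genes. The mean log2 cDNA count per site was 0.62 ± 0.086 in non-coding genes and 0.28 ± 0.033 in protein-coding genes (SD, n = 5 lists), a difference of 0.34 ± 0.064 that was positive in 5 of 5 lists. The exact two-sided sign-flip permutation test gave p = 0.0625, the smallest p that 5 lists allow, so the design cannot pass 0.05. Without list 3 the difference was 0.36 ± 0.050. In the pooled list the median site held 1 cDNA in both classes, and 4603 non-coding sites (61.4%) held exactly 1, against 158758 protein-coding sites (73.8%). The difference lay in the tall sites. The 360 non-coding sites with 10 or more cDNAs (4.81%) held 40.1% of the non-coding cDNAs, and the 854 such sites in protein-coding genes (0.397%) held 7.73% of theirs. The tallest non-coding site, in Rnu3a, held 189 cDNAs and the tallest protein-coding one 972.

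Non-coding sites were also found again more often in the replicate lists, as the plot of support shows. At the same base and strand, 80 non-coding sites (1.07%) were in all 5 lists, against 178 protein-coding sites (0.0827%). Of the 80, 42 were in long spans with the site on the other strand, mostly in the lncRNA Gm36876. Long spans with the site on the gene's strand had 12 (0.305% of their sites). None of the lists held 43.5% of the non-coding sites, against 65.0% of the protein-coding sites. Within 15 bases, 8.72% of non-coding and 0.750% of protein-coding sites had a neighbour in all 5 lists. Taller sites are likelier to be found again, so this measure and the cDNA count per site share their source.

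**Figure D1:**
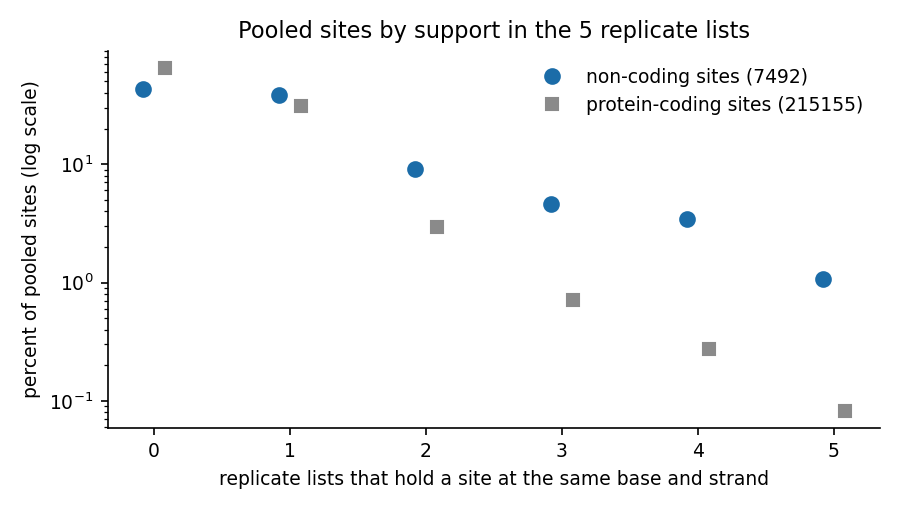
Percent of pooled PTBP1 sites (log axis) by the number of replicate lists that hold a site at the same base and strand, for 7492 non-coding sites (circles) and 215155 protein-coding sites (squares). The circles lie above the squares from 1 list upward, and at 5 lists stand at 1.07% against 0.0827%.

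The sites fell into several kinds. Long non-coding spans with the site on the gene's strand held 3937 sites and 8996 cDNAs (42.3%). Small RNA genes (snRNA, snoRNA, Y RNA and the RNAs of RNase P and RNase MRP), 71 of them, held 725 sites and 4096 cDNAs (19.3%), a mean of 5.65 cDNAs per site against 2.28 in those same-strand long spans. The 8 genes that RefSeq calls misc_RNA, with spans of 13669 to 139603 bases, held 75 sites and 96 cDNAs (0.452%). Long spans with the site on the other strand held 3182 cDNAs (14.98%), tRNA genes inside long spans 1583 (7.45%), spans whose strand the tables do not give 2090 (9.84%), and miRNA, pseudogene or immunoglobulin segments inside long spans 1205 (5.67%). Over the replicate lists small RNA genes took 19.3% ± 7.58 of the non-coding cDNAs (SD, n = 5) and 22.3% ± 3.65 without list 3, in which they took 6.94%. Same-strand long spans took 36.8% ± 2.30 with list 3 and 37.4% ± 2.18 without it.

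A site on the other strand from its gene was far more frequent here than in protein-coding genes. In lists 1 to 5, 75.1%, 66.0%, 56.8%, 73.8% and 68.8% of non-coding sites of known strand lay on the strand of a gene that holds them, a mean of 68.1% ± 7.31, against 97.6% ± 0.619 of protein-coding sites. The difference of -29.5 percentage points was negative in 5 of 5 lists (exact two-sided sign-flip permutation p = 0.0625, the smallest possible), and was -26.9 without list 3. Gm36876 alone held 2416 of the 4137 pooled cDNAs on the other strand (58.4%). With it, 29.0% of the cDNAs of genes of known strand lay on the other strand, and without it 14.6%. Such sites were mapped to the strand opposite to the annotated lncRNA. The 4137 cDNAs and the shares here include sites that also lie in tRNA, miRNA, pseudogene or immunoglobulin genes inside the spans. The 3182 cDNAs given above for the other strand leave those sites out. Whether RNA is read from that strand at these places was not tested.

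A few genes carried most of the cDNAs. The first 3 held 34.6%, the first 10 held 49.1%, the first 15 held 56.2% and the first 50 held 75.9%, while 129 of the 728 genes to which sites were assigned had a single site. Of the first 15 genes, 6 are small RNA genes, and 11 had cDNAs in all 5 lists. The plot of the first 15 genes by list shows that list 3 gave low shares for Xist, Malat1, Gm35545, Pvt1 and Gm25939, none for Gm32298, Rn7sk, Rny1 and Rny3, and a high share for Gm36876 and Gm19951.

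**Figure D2:**
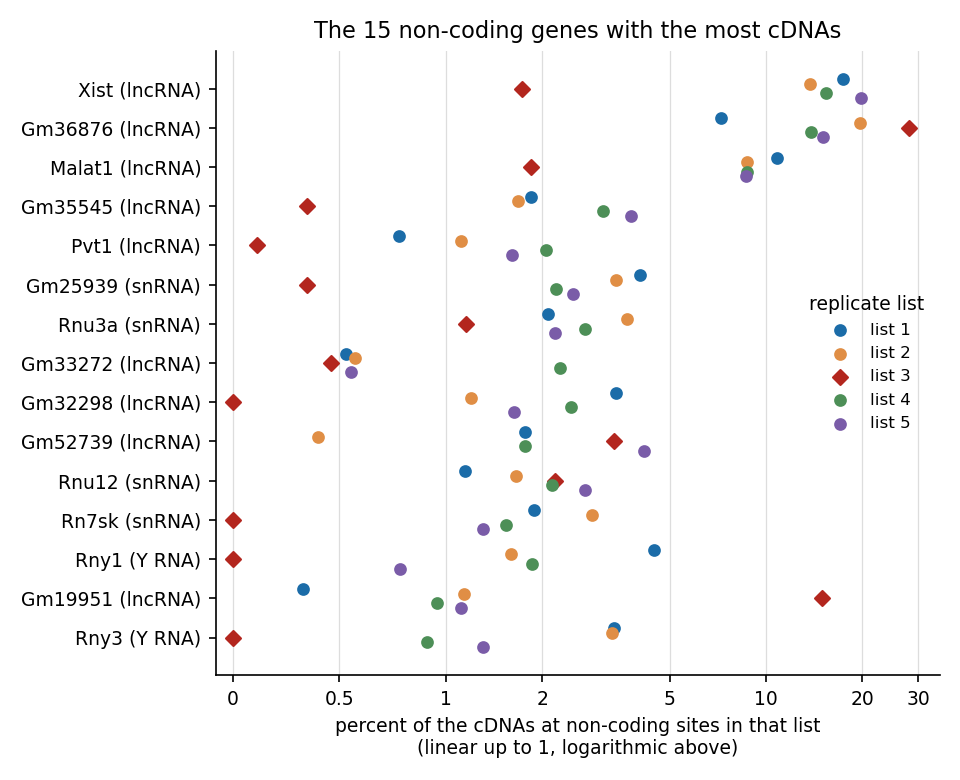
The 15 non-coding genes with the most pooled cDNAs, from Xist at the top to Rny3, with their percent of the cDNAs at non-coding sites in each of 5 replicate lists (axis linear up to 1 and logarithmic above; diamonds mark list 3). Xist lies between 13.8% and 19.8% in 4 lists and at 1.73% in list 3.

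Xist, the RNA that coats and silences an X chromosome in female cells, held the most. Its span (chrX:103460373-103483233, minus strand) had 840 sites and 2857 cDNAs, 13.4% of the total (95% Wilson interval 13.0% to 13.9%, counting error only), all on its own strand. Lists 1 to 5 held 425, 483, 15, 934 and 606 cDNAs. Its share averaged 13.6% ± 7.03 of non-coding cDNAs over 5 lists and 16.6% ± 2.61 without list 3. The same sites lie inside the span of Tsix, its antisense gene, on the strand opposite to it.

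The sites in Xist were packed into one stretch, while those in Malat1 were spread out. Of the cDNAs in Xist, 88.6% lay between 15000 and 16500 bases from the 5′ end of its 22861-base span, and 31 of 46 bins of 500 bases were empty. Among the Xist cDNAs of each list at these positions, the share within that stretch was 88.5%, 95.03%, 92.6% and 94.4% in lists 1, 2, 4 and 5, and 15 of 15 in list 3. No single base stood out, since the tallest of the 840 sites held 40 cDNAs (1.40%). Distances run along the gene and include introns.

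Malat1, an abundant nuclear lncRNA of the splicing speckles (chr19:5795690-5802672, minus strand), held 605 sites and 2077 cDNAs, all on its strand, with 265, 306, 16, 529 and 265 in lists 1 to 5. Per length it carried more than Xist, 297 cDNAs per kb against 125. The stretch from 3000 to 5500 bases held 72.3% of its cDNAs on 35.8% of its span, with 79.2%, 66.3%, 62.5%, 85.1% and 80.8% in lists 1 to 5. Its tallest site, 6632 bases from the 5′ end, held 70 cDNAs, of which 47 at that base were in list 2, 6 in list 1, 5 in list 3, 10 in list 4 and none in list 5.

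**Figure D3:**
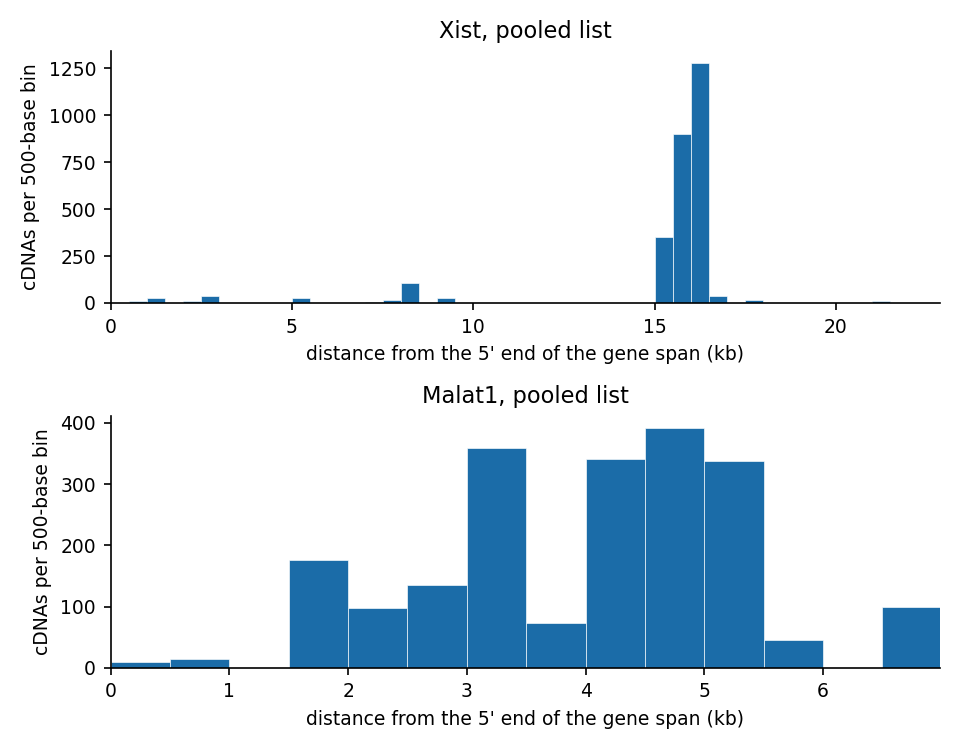
Pooled cDNAs per 500-base bin along Xist and Malat1, by distance from the 5′ end of the gene span in kb. In Xist the 3 bins between 15000 and 16500 bases hold 88.6% of the cDNAs, and in Malat1 the 4 fullest bins hold 68.8%.

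Pvt1, the lncRNA beside Myc, had the widest spread among lncRNA genes with at least 20 cDNAs. It held 383 sites and 564 cDNAs, all on the plus strand, over 161435 bases for 80% of them, and no site above 8 cDNAs. Its density was 2.54 cDNAs per kb. Other nuclear lncRNAs in a hand-made list had few: of 15 symbols 7 had sites, from 2 cDNAs in Meg3 to 2077 in Malat1, with 67 in Neat1, the RNA of paraspeckles, 66 in Lncpint and 42 in Tug1. Besides Xist and Tsix, the X inactivation regulators Ftx and Jpx held 69 and 15 cDNAs.

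Some spans with many cDNAs are loci with no named product. Gm36876 (chr11:108980739-109034783, plus strand) held 295 sites and 2416 cDNAs, every one on the minus strand, with 177, 691, 243, 840 and 461 in lists 1 to 5. A stretch of 261 bases held 80% of them, 38 of its sites were among the 80 found in all 5 lists, and RefSeq lists no other gene that overlaps the span. Gm35545 (chr16:19218502-19245178, plus strand), which overlaps the immunoglobulin light chain segment Iglv3, held 623 cDNAs, of which 528 were on the minus strand. Gm19951 (chr12:99643096-99647221) held 284, with 8, 40, 130, 58 and 34 in lists 1 to 5. Its share averaged 3.71% ± 6.33 over 5 lists and 0.885% ± 0.380 without list 3.

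Gm33272 lies at the end of chromosome Y (chrY:90793687-90806846) and held 226 sites and 398 cDNAs. These are all of the non-coding sites on chromosome Y. The whole pooled list has 565 sites there, 266 of them from the start of this gene onward. The iCLIP mice were female, and whether this end of chromosome Y is shared with chromosome X was not checked. The sources used here do not say how reads that match several places were handled.

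Among small RNAs the cDNAs piled up on a few bases. For genes with at least 20 cDNAs, the shortest stretch with 80% of the cDNAs had a median of 10 bases in 33 small RNA genes and of 1026 bases in 92 lncRNA genes, whose median lengths were 116 and 13150 bases. It was under 20 bases in 28 of the 33 small RNA genes. As a share of the span the medians were 9.01% and 7.20%, so the stretches differed less as a share of the span than in bases. Median density was 581 cDNAs per kb in these small RNA genes and 4.78 in the lncRNA genes. The floor of 20 cDNAs lets a short gene in only at a high density, so the gap between these medians is no test.

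The class called snRNA by RefSeq held 2586 cDNAs in 41 genes. Rnu3a, the U3 RNA that guides cleavage of ribosomal RNA precursors, had 399 cDNAs, 80% of them on 8 bases, and its tallest site, base 135 of 212, held 189 in the pooled list and 27, 80, 7, 60 and 15 in lists 1 to 5. Rnu12, the U12 RNA of the minor spliceosome, had 318 cDNAs, 80% of them on 3 bases with base 118 of 150 in the middle, where the tallest site held 116 in the pooled list and 13, 23, 8, 41 and 31 in the lists. Both were present in every list, list 3 included. Rn7sk, the 7SK RNA that holds the elongation factor P-TEFb inactive, had 317 cDNAs, 80% on 37 bases, with its tallest site of 31 at base 243 of 332.

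Gm25939 and Gm25360 are snRNA genes of 191 bases on chromosome 1. They held 448 and 132 cDNAs, with the tallest sites at base 30 and base 76. A pseudogene of the same length, Gm25419 inside the span of the lncRNA Gm52739, lies under the 2 bases that hold 80% of that lncRNA's 320 cDNAs. Whether these are near-identical copies could not be checked without their sequences, so counts that could be split between them are uncertain.

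The Y RNAs, partners of the Ro60 protein, were the densest of the 15 genes with the most cDNAs. Rny1 held 304 cDNAs, or 2739 per kb, and its tallest site, base 76 of 111, held 134 in the pooled list and 59, 9, 57 and 9 in lists 1, 2, 4 and 5. Rny3 held 283 cDNAs, or 2802 per kb, with 79 at base 60 of 101. Neither had a cDNA in list 3. Of the 26 snoRNA genes, which held 789 cDNAs in all, Snord118, the U8 RNA of ribosome synthesis, led with 214. In the hand-made list of 16 small RNAs, 7 had sites, from 4 cDNAs in Rpph1, the RNA of RNase P, to 318 in Rnu12, with 130 in Rmrp, the RNA of RNase MRP, and 92 in Vaultrc5, a vault RNA.

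Most cDNAs in tRNA genes lay at the anticodon loop. Long non-coding spans enclose 34 tRNA genes with 248 sites and 1583 cDNAs, and bases 33 to 37 of the gene held 1040 of these cDNAs (65.7%) and 82 of the sites (33.1%), on 6.66% of the mean length. That window was chosen after the values were seen, so no test is given. In lists 1 to 5 it held 71.2%, 74.8%, 48.3%, 64.6% and 60.6%, a mean of 63.9% ± 10.3 (SD, n = 5) and 67.8% ± 6.37 without list 3, which had 29 cDNAs in these genes. The tallest site lay in the window in 22 of the 34 genes, and in 16 of the 25 with at least 10 cDNAs. Whether reads were shared between tRNA genes of like sequence could not be checked. Counts per tRNA gene are therefore uncertain, and the genes may not be independent.

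The 2 printed tRNA genes follow this placement, with their tallest sites at bases 34 and 36. The gene with the most cDNAs, n-TKctt28, held 249 and its tallest site was base 34 with 84. It lies in the span of Gm32298, whose 34 sites and 339 cDNAs are all in tRNA genes. The plot by position has a second, lower rise near base 59, led by n-TNgtt14, with 61 cDNAs at that base. The tRNA genes that lie outside all non-coding and protein-coding spans, which the rule leaves out, held 8087 cDNAs in 149 genes, of which 56.9% fell in the same window.

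**Figure D4:**
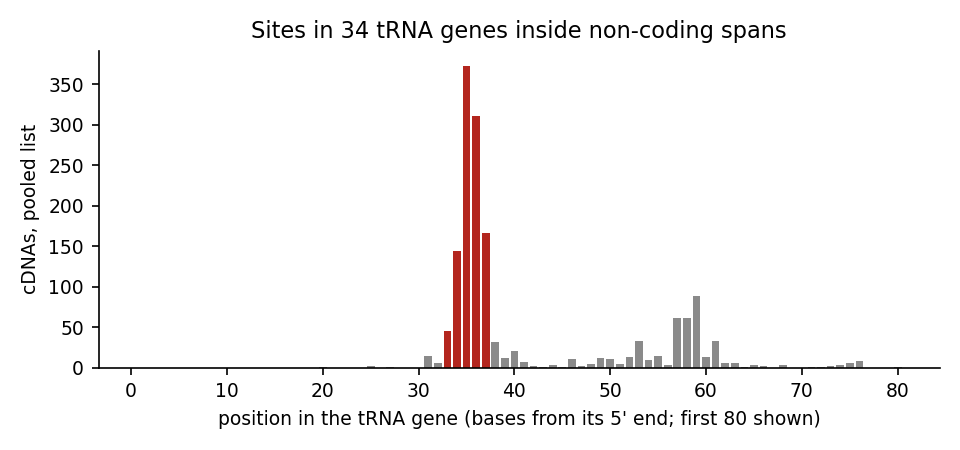
Pooled cDNAs by position in 34 tRNA genes inside non-coding spans, counted in bases from the 5′ end on the strand of the site (first 80 bases shown). Bases 33 to 37 are in red and hold 1040 of 1583 cDNAs, with the peak of 373 cDNAs at base 35.

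Host genes of snoRNAs held most of their cDNAs in the small RNA genes they enclose. Of 21 snoRNA host genes 13 had sites, with 712 cDNAs in their spans, of which 501 (70.4%) lay in small RNA genes inside them. Snhg1 had 228, of which 174 were in enclosed small RNA genes, Gas5 had 114, of which 93 were, and the lowest span had 8. Of 16 microRNA host genes 2 had sites: Dleu2, which carries miR-15a and miR-16-1, held 121 sites and 158 cDNAs, all on its strand, with 0, 17, 0, 37 and 21 in lists 1 to 5, and Mir155hg, the host of miR-155, held 12 sites and 56 cDNAs. Of 22 symbols of immune lncRNAs, 2 genes had sites: Rmrp, and Morrbid with 3 cDNAs.

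The mRNA libraries compare the levels of these genes between cKO and control germinal centre B cells. Ptbp1 itself averaged 98.6 ± 16.4 CPM in LZ cKO and 382 ± 28.9 in LZ control libraries, and 103 ± 9.45 in DZ cKO and 444 ± 31.4 in DZ control libraries (SD, n = 4 each). CPM is a gene's count relative to the total of its library, after TMM scaling, and the libraries held 26823882 to 34240096 gene counts. Of the 750 genes 315 were matched to a counted gene, and 120 passed the filter on low counts, 114 of them lncRNAs. Over these 120 genes the pooled cDNAs and the mean CPM had a rank correlation (Spearman's rho) of 0.354. Of the 15 genes with the most sites' cDNAs, 8 were matched and 4 tested (Xist, Malat1, Pvt1 and Rn7sk), so of the 6 small RNA genes among them only Rn7sk could be tested in these poly(A) libraries. In bulk RNA, fewer cells of a type and less RNA per cell cannot be told apart.

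Markers of B cells were high in all 16 libraries, from a summed 17820 CPM over 7 markers upward. Mef2b, fixed as a germinal centre marker, was at most 0.125 CPM, while Bcl6, S1pr2 and Fas were well expressed. Macrophage markers (4 of 4 detected) summed to 42.2 to 392 CPM in LZ cKO and 5.78 to 324 CPM in LZ control libraries, and to 15.3 to 1042 CPM in DZ cKO and 4.25 to 348 CPM in DZ control libraries. T cell markers (4 of 4 detected) summed to 29.0 to 121 CPM in LZ cKO and 28.4 to 106 CPM in LZ control libraries, and to 11.5 to 59.7 CPM in DZ cKO and 6.88 to 42.8 CPM in DZ control libraries. NK cell markers averaged 14.7 CPM in LZ cKO and 7.64 in LZ control libraries, and 20.1 in DZ cKO and 8.97 in DZ control libraries. Neutrophil markers averaged 7.71 CPM in LZ cKO and 1.57 in LZ control libraries, and 10.6 in DZ cKO and 3.93 in DZ control libraries. The summed means of macrophage, T cell, NK cell and neutrophil markers were thus higher in cKO libraries in both zones, and the ranges overlapped. In the dark zone plasma cell markers (4 of 4) summed to 2262 to 10620 CPM in DZ cKO and 2582 to 7539 CPM in DZ control libraries. Their part in the results below was not tested.

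In the light zone 1 of the 120 genes was called. With edgeR's quasi-likelihood test and an adjusted p under 0.05, 1.08% of all 15789 genes tested were called, so 1 call among 120 is near the background. The gene was 2310001H17Rik, a lncRNA of unknown function on chr6:129232623-129238482, which rose. Its level was 31.1, 28.0, 26.9 and 28.1 CPM in LZ cKO libraries 1 to 4, against 19.5, 17.8, 16.8 and 16.7 CPM in LZ control libraries. The groups did not overlap, and all 4 cKO pools were above the control pool of their sort day. The log2 fold change was 0.69 ± 0.11 (SE) with an edgeR adjusted p of 0.00659. With only female or only male libraries the change was 0.71 and 0.67, with adjusted p of 0.273 and 0.32. The gene held only 3 sites with 5 cDNAs, none of them in a replicate list.

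The median log2 change of the 120 genes in the light zone was 0.079, beside 0.019 for all genes tested, and 17 of the 120 had an unadjusted p under 0.05 (14.2%, beside 13.4% of all genes). When sort day, which pairs the libraries, entered the edgeR fit as a block, 4 of the 120 genes were called (3.33%), beside 5.50% of all genes. The added ones were Dleu2, Gm8995 and 2310015A10Rik, with log2 changes of -0.51, 0.58 and 0.61 and edgeR adjusted p of 0.0199, 0.0277 and 0.025.

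In the dark zone none of the 120 genes was called, with 0.627% of all genes called. With edgeR 12 had an unadjusted p under 0.05 (10%, beside 11.4% of all genes), and DESeq2 called 4, or 3.33%, beside 2.74% of all genes. The median log2 change was -0.044, beside 0.011 for all genes. With sort day as a block 4 were called, or 3.33%, beside 3.27% of all genes, which is near the background. Of these, 2310001H17Rik and Gm8995 rose by 0.46 and 0.92 on the log2 scale, and Dleu2 and 1700086O06Rik fell by 0.61 and 1.41, with edgeR adjusted p of 0.0172, 0.00433, 0.0117 and 0.0484. Without the block 2310001H17Rik had 39.7, 33.6, 36.9 and 37.7 CPM in DZ cKO libraries, against 32.1, 27.6, 26.002 and 22.6 CPM in DZ control libraries, and an edgeR adjusted p of 0.0825.

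Of the 5 genes called with the block, Dleu2 held 121 sites, Gm8995 held 42 and the others at most 3. Its level was 34.6, 22.1, 23.7 and 31.1 CPM in LZ cKO libraries, against 37.8, 39.2, 37.2 and 42.6 CPM in LZ control libraries. DZ cKO libraries had 31.2, 25.5, 25.6 and 31.5 CPM, against 52.6, 42.8, 38.4 and 40.2 CPM in DZ control libraries. In neither zone did the groups overlap, and all 8 cKO libraries were below the control library of their day. Without the block the log2 changes were -0.49 ± 0.15 and -0.61 ± 0.15 (SE), with edgeR adjusted p of 0.126 and 0.0756, while DESeq2 gave adjusted p of 0.0551 and 0.00978. Its span overlaps Trim13 and Kcnrg, and reads of overlapping genes cannot be told apart without strand, which is not given for these counts.

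The genes with the most sites gave no call. Malat1 was 454, 341, 136 and 245 CPM in LZ cKO libraries, against 416, 348, 136 and 176 CPM in LZ control libraries. In DZ cKO libraries it was 180, 203, 106 and 137 CPM, against 245, 224, 153 and 106 CPM in DZ control libraries. The groups overlapped in both zones, and the spread within a group was larger than the difference between genotypes. Its log2 changes were 0.13 ± 0.39 and -0.22 ± 0.39 (SE), with edgeR adjusted p of 0.939 and 0.905. Pvt1 averaged 10.4 ± 3.04 CPM in LZ cKO and 9.13 ± 1.60 in LZ control libraries, and 9.22 ± 0.835 in DZ cKO and 9.81 ± 3.10 in DZ control libraries. Its log2 changes were 0.19 ± 0.24 and -0.090 ± 0.24, with edgeR adjusted p of 0.824 and 0.945. Rn7sk averaged 1.73 ± 1.66 CPM in LZ cKO and 1.43 ± 0.488 in LZ control libraries, and 0.882 ± 0.368 in DZ cKO and 1.08 ± 0.702 in DZ control libraries. Its log2 changes were 0.27 ± 0.62 and -0.29 ± 0.62, with edgeR adjusted p of 0.918 and 0.928.

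Xist was read only in the female pools, since male libraries held at most 0.109 CPM. It was 104 and 117 CPM in LZ cKO, against 155 and 111 CPM in LZ control libraries, and 83.0 and 115 CPM in DZ cKO, against 113 and 96.9 CPM in DZ control libraries. The groups overlapped in both zones. An edgeR fit of the female libraries gave log2 changes of -0.27 and -0.079, with adjusted p of 0.76 and 0.98.

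**Figure D5:**
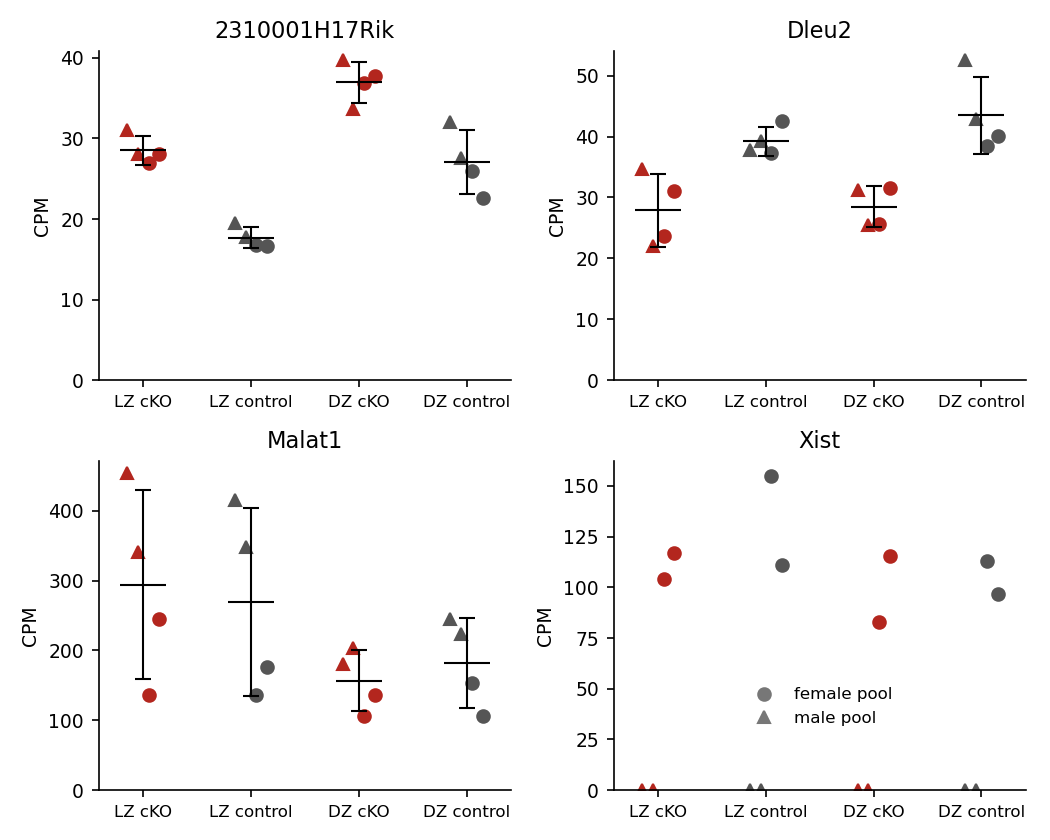
CPM in every library for 2310001H17Rik, Dleu2, Malat1 and Xist, with LZ cKO, LZ control, DZ cKO and DZ control from left to right, circles for female pools, triangles for male pools, and bars for the mean ± SD (n = 4; none for Xist). The cKO points lie above the control points for 2310001H17Rik in both zones and below them for Dleu2, and overlap them for Malat1.

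By list, edgeR without the block called none of these genes by genotype. The 10 snoRNA host genes tested had median log2 changes of 0.021 in the light zone and -0.068 in the dark zone, near the medians of all genes. The 6 nuclear lncRNAs had medians of 0.20 and 0.25, and the 3 small RNAs 0.27 and 0.32. The 3 X inactivation RNAs had medians of 0.13 and -0.073, with Xist read in both sexes. Both microRNA hosts had negative values, Dleu2 as given and Mir155hg with log2 changes of -0.42 (LZ) and -0.36 (DZ) and edgeR adjusted p of 0.758 and 0.84. Morrbid, the 1 immune lncRNA tested, had log2 changes of 0.62 and 0.30, with edgeR adjusted p of 0.3 and 0.731.

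More of these genes were called between the light and dark zones of control mice than by genotype, as was the case for all genes. Of 120 genes 8 were called with edgeR at an adjusted p under 0.05 (6.67%), beside 7.49% of all genes, which is near the background. The median log2 change was -0.052, beside -0.00026 for all. The 3 higher in the light zone were Gm12066, Gm4610 and A530040E14Rik, and the 5 lower were Morrbid, Lockd, 2310001H17Rik, 2210406O10Rik and B230354K17Rik. Morrbid, a regulator of cell survival in myeloid cells, was 1.41, 1.46, 1.48 and 1.59 CPM in LZ control and 4.98, 5.01, 7.68 and 6.38 CPM in DZ control libraries, with a log2 change of -2.01 and an adjusted p of 0.000187. Lockd, which lies downstream of Cdkn1b, was 8.51, 8.71, 11.1 and 11.002 CPM in LZ control and 18.7, 12.9, 16.4 and 16.1 CPM in DZ control libraries, with a log2 change of -0.70 and an adjusted p of 0.014. Gm4610 averaged 36.4 ± 6.22 CPM in LZ control and 19.8 ± 1.83 CPM in DZ control libraries. Without LZ control library 1, 4 of the 120 genes and 787 of all genes were called. Without LZ control library 4 these counts were 5 and 1019, beside 1183 of all genes in the full fit. With sort day as a block 18 were called (15%), the 8 among them, beside 13.7% of all genes, and DESeq2 called 13 (10.8%), beside 10.8% of all genes. The snoRNA hosts Gas5, Snhg15, Snhg17 and Zfas1 were then higher in the light zone, with log2 changes of 0.54, 0.67, 0.54 and 0.70 and edgeR adjusted p of 0.00272, 0.0243, 0.0325 and 0.00605. Ftx was lower, with -0.54 and an adjusted p of 0.0152. The other calls added by the block were Gm8995 and Gm15232, higher by 0.93 and 0.57, and AU020206, Gm30211 and 4933404O12Rik, with -0.73, -0.59 and -0.84.

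No gene was called as changing differently with genotype in the 2 zones. With edgeR's interaction test none of the 120 genes was called, and 0% of all genes. Of the 120, 2 had an unadjusted p under 0.05 (1.67%, beside 2.95% of all genes), and DESeq2 called none, beside 0.0253% of all genes.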

How the data were processed

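Per the file headers, the authors kept iCLIP sites with an FDR under 0.05 (100 permutations, neighbourhood of 15 nt) on mm10 with Ensembl 75. The deposited score of a site is a signed cDNA count (sign for strand), per replicate and for the replicates summed, and its absolute value was used. Bowtie, Trim Galore 0.4.2, HISAT2, HTSeq and GRCm38 stand in the submitters' processing notes. Their settings, including strand, are not given there. The deposited RNA values are raw counts per gene. Summary lines that name no gene (41.4% to 49.8% of entries per library) were left out.

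Sites were matched to RefSeq spans of GRCm38.p6. Strand came from RefSeq promoter tables, which give none for most small RNAs, and exon boundaries were not used. A site in several spans was assigned to one not on the opposite strand, then to the shortest. RNA was tested across all genes in R 4.3.3 with edgeR 4.0.16 (filterByExpr, minimum count 10, TMM, robust quasi-likelihood fit of all 16 libraries, two-sided, Benjamini-Hochberg over 15789 genes), with DESeq2 1.42.0 as an alternative. A run on simulated counts, with less spread than the data and no sort-day effect, says nothing of error rates here. The p-values of the main edgeR fit measure the spread between libraries, taking the LZ and DZ libraries of a pool as independent. Lists were compared in Python 3.11.15 by exact sign flips. Intervals cover counting error only.

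Genes named in the text are the 15 with the most pooled cDNAs, those called by genotype, and members of hand-made lists. Genes called only with the block or between zones, Rnu7, Snord118, the tRNA genes, Gm25360 and Gm25419 were named after their values were seen. The members and lists were chosen with earlier results of these data known. The replicate number is the sort day per the labels, and LZ and DZ libraries of a number and genotype share a pool, so numbers pair libraries. Deviations of same-day libraries from their group means correlated at 0.0944 to 0.39. No motif test was run, as genome sequence was not used here. One marker gene is not reported here.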

Additional observations from a re-analysis of the deposited data

Results flagged for a closer look

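In 4 of 85 groups of 4 or 5 samples examined, a sample lay far from the others of its group by Dixon's criterion, which chance alone meets in about 1 of 20. Malat1 took 1.85% of the non-coding cDNAs in iCLIP list 3, against 8.67% to 10.9% in the other lists. Gm19951 took 15.03% in list 3, against 0.328% to 1.14% in the others. Gm33272, at the end of chromosome Y, took 2.27% in list 4, against 0.462% to 0.571%. Gm8995 had 40.8 CPM in DZ control library 2, against 16.5 to 20.5 CPM in the other DZ control libraries.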

How the results depend on the processing

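The share of cDNAs in non-coding genes (8.20%) was 3.96% for sites on the gene's strand, 12.3% for sites of at least 3 cDNAs, 7.16% without Xist, 7.77% with the left-out stretch of chromosome 17 kept in, and 8.12% to 8.29% leaving out each list. The 3.96% also leaves out sites of genes whose strand the tables do not give. Chosen after seeing the data, counting tRNA, miRNA and rRNA genes too gave 12.9% and lncRNA genes only 6.96%. The log2 difference in cDNAs per site (0.34) was 0.24 for sites of at least 3 cDNAs (exact sign-flip p = 0.125), 0.718 cDNAs as arithmetic means, and 0.32 to 0.36 leaving out each list. The count of genes called in the light zone (1) was 4 with sort day as a replicate block. It was 0 in female and 0 in male libraries, where 9 and 3 of all genes were called. Leaving out each library it was 1 to 1, beside 58 to 137 of all genes. In the dark zone (0) it was 4 with the replicate block and 4 with DESeq2. Leaving out each library gave 0 to 1 (1 without DZ control 1, beside 68 of all genes). Between zones (8) it was 18 with the replicate block, 13 with DESeq2, and 5 of the 94 genes with at least 3 sites. Leaving out each library gave 4 to 9, beside 753 to 1150 of all genes. The interaction count was 0 to 0. Upper-quartile scaling, no filter on low counts, members by own-strand sites and fits of 2 groups changed none of these counts by over 1.5 times. The calls that the block added are named with the results. Directions turned for uncalled genes: Pvt1 in female libraries (-0.19 in LZ, 0.36 in DZ), Rn7sk in LZ with the replicate block (-0.086) and in female libraries (-0.75), and, leaving out each library, Malat1 in LZ (-0.16 to 0.42), Pvt1 in DZ (-0.21 to 0.084) and Rn7sk (-0.62 to 0.55 in LZ, -0.55 to 0.23 in DZ). The causes were not tested. The motif test and its alternatives were not run. List 3 held 865 cDNAs at non-coding sites, and most genes had few or none there. Why its cDNAs were placed differently was not tested. The poly(A) libraries allowed a test of only 4 small RNA genes.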
